A study of Homo sapiens with 7 samples.

Results

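The RNA regions described here are the 752 sites at which the RNA-binding protein RBM15 was enriched by RNA immunoprecipitation and which lay in introns. They were taken from a deposited list of enriched sites by a single criterion, that the RefSeq annotation of the site was intron and nothing else, and made up 49.6% of the list. The rest of the list consisted of 443 sites in 3'UTRs, 213 outside RefSeq genes, 87 in coding sequence and 20 of other annotations, among them the few that named an intron together with another region. The cells were MEG-01, a long-established line from a human megakaryoblastic leukemia. After formaldehyde cross-linking, RBM15 and its bound RNA were pulled down with a rabbit polyclonal antibody raised against an N-terminal peptide of the protein, normal immunoglobulin (IgG) served for comparison, and the RNA was sequenced in a strand-specific manner. All libraries of the series are labelled as exponentially growing MEG-01 cells at passage 5 with lentiviral transgenes, the control cells included. A companion RNA-seq experiment compared 1 library of control MEG-01 cells, so called because its labels name no knockdown, with 1 library from each of 2 stable lines that carried different short hairpins against RBM15, shRBM15#1 and shRBM15#2. Whether the control carried a non-targeting hairpin is not given in the labels.

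RBM15 belongs to the spen family, whose members bind RNA through N-terminal RNA recognition motifs and proteins through a C-terminal SPOC domain. It is a nuclear protein that associates with the WTAP-containing complex that writes N6-methyladenosine on RNA, and it is required for normal megakaryocyte development. Introns are absent from fully spliced mRNA, and unspliced RNA is mostly nuclear. The intronic sites address which parts of annotated introns were recovered with RBM15.

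The antibody labels of the RIP-seq libraries go against the reads for some libraries. There were 2 libraries labelled normal IgG and 2 labelled RBM15 antibody, and the list was selected for more reads with the RBM15 antibody. At all 752 intronic sites the second library labelled normal IgG had more reads than the second library labelled RBM15 antibody, with 197778 against 6282 reads in sum. Both were therefore assigned to no antibody, and the values below are those of 1 normal IgG library and 1 anti-RBM15 library. With 1 library per antibody no test was possible. Intervals given for single sites are exact 95% Poisson intervals and cover counting error only, since PCR duplicates are not separated from molecules. The total depth of the RIP-seq libraries is unknown, because counts are held for the selected sites only, so ratios between libraries are ratios of raw reads.

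Most of the sequences below are examples of the cytosine-rich, guanine-poor and often tandemly repeated RNA found at many intronic sites. Sites and stretches were picked for display, so they do not measure how common this was. VTI1A and GLRA1, also among the 10 sites with the most anti-RBM15 reads but lower in cytosine, are not shown. At the GLRA1 site cytosine did not exceed guanine on the strand of the gene. From each of the sites below, the stretch of 120 bases with the greatest difference between cytosine and guanine is given from the GRCh37 reference, 5′ to 3′ on the strand of the host gene. Capitals mark the motifs CACACA and CACCC. The first 4 belong to sites among the 10 with the most reads in the anti-RBM15 library, in SLC19A1 (the reduced folate carrier), CPNE7 (a calcium-dependent phospholipid-binding copine), CBFA2T3 (the ETO2 corepressor of erythroid and megakaryocytic GATA1 and TAL1 complexes) and SLC38A10 (a putative amino acid transporter).
SLC19A1 chr21:46949891-46950010 minus strand: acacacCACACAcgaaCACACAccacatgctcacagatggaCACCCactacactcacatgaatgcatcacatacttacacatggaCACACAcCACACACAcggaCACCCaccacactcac
CPNE7 chr16:89654175-89654294 plus strand: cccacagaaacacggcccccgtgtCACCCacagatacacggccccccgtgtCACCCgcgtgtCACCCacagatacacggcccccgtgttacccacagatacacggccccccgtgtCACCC
CBFA2T3 chr16:88982400-88982519 minus strand: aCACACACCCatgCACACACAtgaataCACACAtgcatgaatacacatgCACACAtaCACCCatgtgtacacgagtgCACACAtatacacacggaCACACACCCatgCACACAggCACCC
SLC38A10 chr17:79223205-79223324 minus strand: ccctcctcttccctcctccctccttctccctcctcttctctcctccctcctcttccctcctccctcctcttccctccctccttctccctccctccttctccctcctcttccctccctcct

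The next 2 stretches come from the site with the most anti-RBM15 reads in CMIP, the gene with the most intronic sites, and in MACROD1. They show tandem repeats of different units with the same strand bias.
CMIP chr16:81584546-81584665 plus strand: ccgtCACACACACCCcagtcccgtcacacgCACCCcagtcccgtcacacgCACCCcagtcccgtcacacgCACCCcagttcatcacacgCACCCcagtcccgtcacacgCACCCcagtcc
MACROD1 chr11:63777740-63777859 minus strand: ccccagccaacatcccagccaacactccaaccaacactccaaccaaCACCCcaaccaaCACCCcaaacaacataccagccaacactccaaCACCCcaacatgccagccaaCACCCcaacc

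Sites in 3 regulators of megakaryocyte and blood formation show an excess of cytosine with little or no repetition of 12-base words. GATA1 encodes the zinc finger factor of erythroid cells and megakaryocytes, RUNX1 the core-binding factor required for definitive hematopoiesis and TAL1 the helix-loop-helix factor of hematopoietic progenitors.
GATA1 chrX:48645375-48645494 plus strand: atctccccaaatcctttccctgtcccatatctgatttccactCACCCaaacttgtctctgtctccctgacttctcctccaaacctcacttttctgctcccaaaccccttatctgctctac
RUNX1 chr21:36348099-36348218 minus strand: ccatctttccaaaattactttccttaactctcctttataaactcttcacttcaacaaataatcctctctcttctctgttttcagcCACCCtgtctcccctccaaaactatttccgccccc
TAL1 chr1:47689246-47689365 minus strand: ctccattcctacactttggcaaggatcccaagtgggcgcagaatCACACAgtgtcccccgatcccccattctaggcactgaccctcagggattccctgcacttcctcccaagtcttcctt

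The FLRT1 site with the most reads is shown as the opposite case, in which guanine exceeds cytosine on the strand of the annotated gene. This site lies within the span of MACROD1, which is transcribed from the other strand.
FLRT1 chr11:63881649-63881768 plus strand: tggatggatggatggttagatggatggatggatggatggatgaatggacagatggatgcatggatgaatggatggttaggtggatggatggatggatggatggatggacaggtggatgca

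Reads at the intronic sites were lower than at sites in mature mRNA. The anti-RBM15 library had 46 to 5676 reads per intronic site with a median of 183, against medians of 436 at the 443 sites in 3'UTRs, 508 at the 87 sites in coding sequence and 205 at the 213 sites outside RefSeq genes. The normal IgG library had 0 to 126 reads per intronic site with a median of 5, and 206 of the 752 sites had fewer than 3. In sum, the intronic sites held 258818 anti-RBM15 reads, which was 32.0% of the anti-RBM15 reads over the whole list, and 6588 normal IgG reads. All 752 sites had more reads with anti-RBM15, but the list was selected for this. With normal IgG counts under 3 set to a floor of 3, the median ratio of the raw reads was 33.0 (quartiles 24.3 and 48.1) at intronic sites, 31.0 at sites outside RefSeq genes, 23.5 at 3'UTR sites and 17.1 at coding sites. The ratio was lower in the classes with more normal IgG reads, whose medians were 19 at 3'UTR sites and 28 at coding sites. No test was made, because sites of 1 pair of libraries are not replicates. Intronic sites had a median width of 361 bases and a range of 167 to 977, beside medians of 347 bases at 3'UTR sites and 414 at coding sites.

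**Figure D1:**
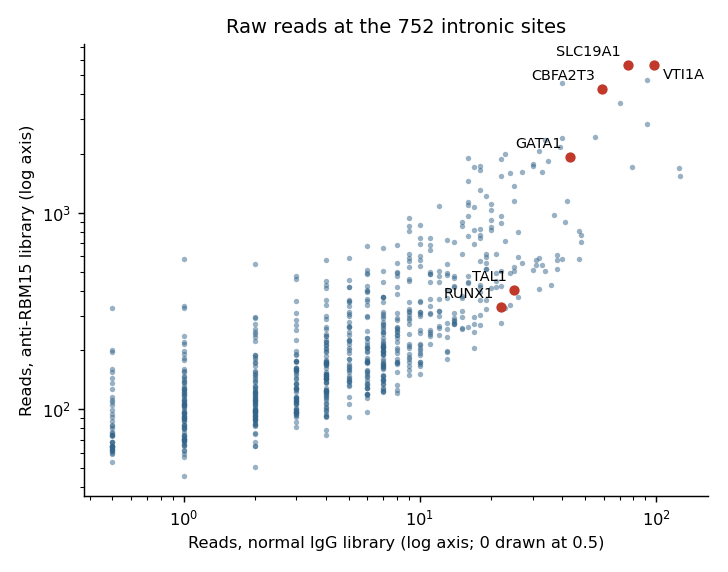
Reads at each intronic site in the normal IgG library (horizontal, log axis, counts of 0 drawn at 0.5) against the anti-RBM15 library (vertical, log axis). Each point is 1 of the 752 sites, and the site with the most reads in 6 named genes is red. The cloud runs from an anti-RBM15 count of 46 to 5676 in SLC19A1, and sites with more anti-RBM15 reads also had more normal IgG reads.

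The site with the most anti-RBM15 reads lay in the fourth intron of SLC19A1 (chr21:46949528-46950256, minus strand), with 5676 reads (5529 to 5826) against 76 with normal IgG (59.9 to 95.1). The libraries assigned to no antibody had 4148 and 64 reads there. A site in VTI1A, a SNARE of the Golgi and endosomes (chr10:114308094-114308326), followed with 5663 against 98 reads, and CPNE7 held the third and the sixth with 4715 against 91 and 3635 against 70. CBFA2T3 had 4267 against 59 reads at a site in its first intron, 24529 bases from the upstream exon, and a second site with 746 against 18. The list of 10 was completed by MTSS1, a membrane-binding actin regulator (4569 against 40), SLC38A10 (2836 against 91), GLRA1, a glycine receptor subunit (2425 against 55), CTBP1, a corepressor that binds many zinc finger proteins (2414 against 40), and the palmitoyltransferase gene ZDHHC14 (2350 against 34). These 10 sites held 14.9% of the anti-RBM15 reads over all intronic sites. At each of the 10, one unassigned library had 1400 to 4904 reads and the other 20 to 93. VTI1A and GLRA1 stood apart in sequence, with 20.2% and 8.70% cytosine against 32.5% to 62.0% in the other 8 sites. Cytosine still exceeded guanine on the gene strand at the VTI1A site, but not at the GLRA1 site.

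Sites in regulators of blood cells ranged widely in reads. GATA1 carried a pair of sites. The first (chrX:48645327-48646095) began 273 bases after the nearest upstream exon, in the first intron, with 1915 anti-RBM15 reads (1830 to 2003) against 43 with normal IgG (31.1 to 57.9), and 1226 and 41 in the unassigned libraries. The second (chrX:48651754-48652064) filled most of the last intron, 49 bases from one exon and 135 bases from the next, with 422 (383 to 464) against 14 (7.65 to 23.5) reads. The RUNX1 site (chr21:36347907-36348295) had 333 (298 to 371) against 22 (13.8 to 33.3) reads and lay deep in an intron, 72843 and 82646 bases from the nearest exons. The TAL1 site (chr1:47689122-47689507) had 404 (366 to 445) against 25 (16.2 to 36.9) reads and partly covered an Ensembl exon bin. STAT5B, a transcription factor downstream of the thrombopoietin receptor, had 444 against 11 reads in a site of which 60.9% of all 12-base words occurred more than once. The Wnt effector LEF1 had 88 against 2 reads, which is near the lower end of the list. The GATA1 sites were thus above the median of 183 reads and the LEF1 site below it.

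Among chromatin regulators, the macroH2A gene H2AFY had 539 against 31 reads, the class IIa deacetylase HDAC4 178 against 1, the Groucho-type corepressor TLE3 129 against 3 and the nuclear receptor corepressor NCOR1 83 against 2. The zinc finger gene ZNF160 had 276 against 22 and TAF9, a subunit of the general factor TFIID, 100 against 3. ARHGEF1, a guanine nucleotide exchange factor gene, had a pair of sites with 127 against 0 and 212 against 4 reads, and ARHGEF2 had 1 with 182 against 6. RPTOR, the scaffold of mTOR complex 1, had 4 sites with 239 to 712 anti-RBM15 reads and 8 to 48 normal IgG reads, of which 3 were made up largely of tandem repeats, with 73.0%, 84.8% and 85.3% of their 12-base words repeated.

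The 752 sites fell in 550 gene symbols. Of these genes 434 had 1 site, 116 had 2 or more, which held 318 sites in sum, and 13 had 5 or more. CMIP, an adaptor protein gene, had 11 sites over 232668 bases in 3 introns, with 64 to 1080 anti-RBM15 reads and 0 to 12 normal IgG reads. TRAPPC9, a subunit of a vesicle tethering complex, had 8 sites with 70 to 1890 reads, the TBC-domain gene TBC1D22A 7 with 90 to 292 reads and the transmembrane collagen gene COL23A1 6 with 119 to 2155 reads. Each of AHDC1, ANKMY1, CPNE7, CXXC5, LOC550643, MAD1L1, TTTY14, VAV1 and VAV2 had 5. Within a gene some sites lay close together and others far apart. In CMIP the gaps between neighbours ran from 44 to 90505 bases with a median of 12962. The median gap was 540 bases in TBC1D22A and 49631 bases in COL23A1. Sites with a small gap between them can share a repeat tract and are not independent. In CMIP, 4 adjacent sites with 64, 113, 162 and 145 reads had best-matching repeat periods of 6 bases and a guanine content of 0% to 2.80%. VAV1 and VAV2, which encode guanine nucleotide exchange factors that act downstream of tyrosine kinases, had 97 to 367 and 80 to 452 anti-RBM15 reads per site. In all 13 genes, each site had more cytosine than guanine on the strand of the gene.

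**Figure D2:**
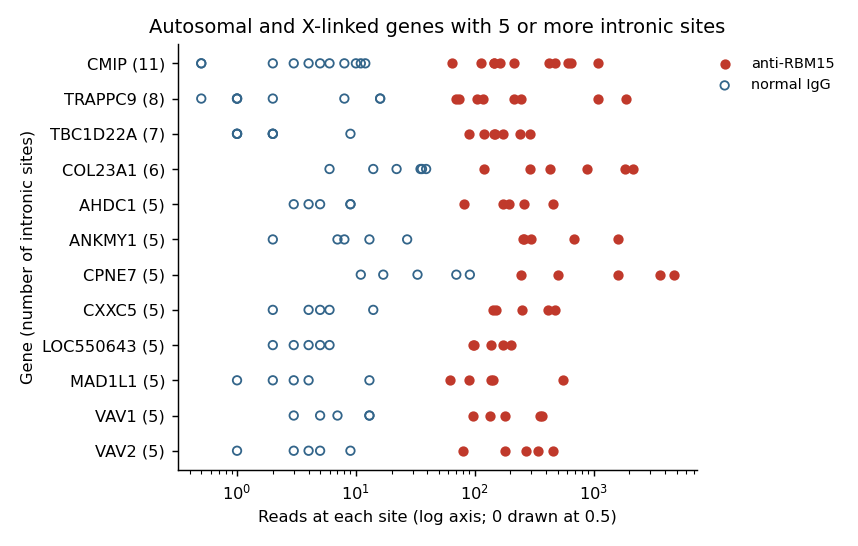
Reads at each intronic site (horizontal, log axis, counts of 0 drawn at 0.5) of the autosomal and X-linked genes with 5 or more such sites (vertical, number of sites in parentheses). Filled points are the anti-RBM15 library and open points the normal IgG library. In none of these genes did the 2 libraries overlap, which follows from the selection of the list, and the largest values are those of CPNE7 with 4715 reads.

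Base composition set the intronic sites apart from their surroundings. On the strand of the host gene, the median intronic site was 36.5% cytosine and 12.7% guanine (quartiles 30.7% and 43.5% for cytosine, 8.37% and 16.3% for guanine). Windows of the same length that began 2000 bases from the sites in the same genes, off every site and exon bin, were 22.7% cytosine and 23.6% guanine in the median, and 3'UTR sites 18.0% and 20.04%. Cytosine exceeded guanine in 707 of the 752 intronic sites, or 94.0% (95% Wilson interval 92.1% to 95.5%), against 40.8% of 1071 windows, 41.4% of coding sites and 31.2% of 3'UTR sites. Cytosine was more than 2 times guanine in 79.0% of intronic sites and in 1.59% of windows. The total of both bases barely showed this, with a median GC content of 49.6% in intronic sites, 47.3% in windows, 47.0% in sites outside RefSeq genes and 38.4% in 3'UTR sites. The sites outside RefSeq genes have no annotated strand, and their cytosine and guanine differed by 21.6 percentage points in the median regardless of sign, against 23.96 points in intronic sites and 4.05 points in windows. The strand comparison was chosen after the composition had been seen, and the shares are a description, with no test.

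**Figure D3:**
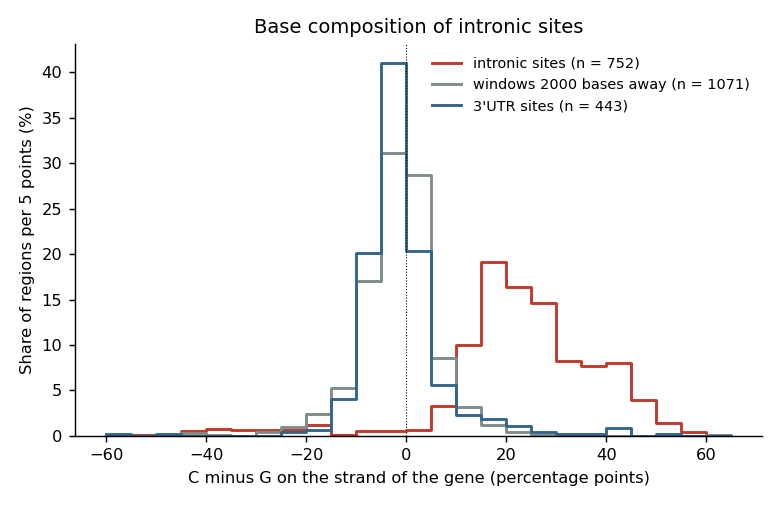
Distribution of cytosine minus guanine content on the strand of the gene (horizontal, percentage points), as the share of regions in steps of 5 points (vertical, percent), for the 752 intronic sites (red), 1071 windows of the same length 2000 bases away (grey) and 443 3'UTR sites (blue). The intronic sites lie mostly to the right of 0 with a small group to the left, and the other sets are centred near 0.

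The 45 sites with no excess of cytosine had as much guanine as cytosine, or more, on the strand of the gene. Of these, 23, or 51.1% (37.004% to 65.0%), lay within the span of an annotated gene on the opposite strand, against 46 of the other 707 sites, or 6.51% (4.91% to 8.57%). The rest of the 45 lay within the span of no annotated gene on the opposite strand. Examples picked from the 23 were the 3 FLRT1 sites with 1107, 859 and 293 anti-RBM15 reads. These lie within MACROD1 and held 42.4% to 43.7% guanine. Another was a COL18A1 site with 660 reads and 54.0% guanine within the span of SLC19A1. MACROD1, a mono-ADP-ribosylhydrolase gene, and SLC19A1 carried intronic sites of their own, with 2073 and 403 reads in MACROD1. The strand of the reads at each site is not given in the deposited list, so the strand from which these reads came cannot be told. The median of the 45 sites was 286 anti-RBM15 reads, beside 181 at the 707 others. The GLRA1 site, with 2425, had the most reads of the 45.

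Repeats were frequent in the intronic sites. A median of 5.34% of the 12-base words of an intronic site occurred more than once in it. At least 50% did in 166 sites, or 22.1% (19.3% to 25.2%), against 1.40% of windows and 1.58% of 3'UTR sites. Sites outside RefSeq genes lay between, with 10.3%. In 197 sites at least 60% of bases matched the base 1 period further on, and the commonest periods were 4 bases in 35 sites and 2 bases in 21. A further 267 sites, or 35.5%, held no repeated 12-base word. The cytosine bias was as frequent there, since 249 of these 267 sites, or 93.3% (89.6% to 95.7%), had more cytosine than guanine, with medians of 32.3% and 13.8%. Sites with at least 50% of their words repeated had a median of 223.5 anti-RBM15 reads and sites without repeats 167. The sources used here do not say how reads with more than 1 match in the genome were placed.

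Short motifs followed the same bias. CCCCC was found on the gene strand of 40.6% of intronic sites and GGGGG of 4.52%, against 24.5% and 24.7% of the windows. TTTTT occurred in 21.5% of intronic sites, 51.4% of windows and 72.5% of 3'UTR sites. GGACT, a sequence that fits the N6-methyladenosine consensus, occurred on the gene strand of 10.4% of intronic sites, on the opposite strand of 22.1%, and on the gene strand of 26.4% of windows. GTAAGT, a strong 5′ splice site sequence, occurred in 2.39% of intronic sites and 4.39% of windows. CACACA and CACCC were added after the sequences had been seen. CACACA occurred on the gene strand of 50.9% of intronic sites and on the opposite strand of 9.04%, against 14.9% and 19.0% of windows, and CACCC in 61.7% and 9.18%, against 33.1% and 41.2% of windows. In sites outside RefSeq genes, which have no annotated strand, CACACA occurred on the plus strand of 25.8% and the minus strand of 23.5%. CACCC occurred there in 42.3% and 29.6%. CACACA and CACCC can overlap. A match is a description of the letters and does not show where a protein bound. Across the 752 sites, anti-RBM15 reads had a Spearman rho of 0.085 with cytosine content and 0.18 with the share of repeated words, and of 0.81 with normal IgG reads. These points share 2 libraries and differ in transcript abundance and width.

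Most sites lay between exons. The host gene was found among the Ensembl gene models of the RNA-seq counts for 743 sites and 542 genes, and 681 of the 743 sites, or 91.7% (89.4% to 93.4%), touched no exon bin of their host. In all, 81 sites, or 10.8% (8.75% to 13.2%), overlapped an Ensembl exon bin of some gene, and 59, or 7.85%, did so by at least 50% of their length. The gap between exons that held a site had a median length of 8682 bases. The nearest exon edge was at a median of 1486 bases, within 300 bases for 123 sites, or 18.1% (15.4% to 21.1%), and within 100 bases for 31. The upstream exon was nearer in 402 of 681 sites, or 59.0% (55.3% to 62.7%), with median distances of 2873 bases upstream and 3457 downstream. With all exon bins taken as exons, 84 of 681 sites, or 12.3%, lay in the first gap of the gene. With the introns of the longest annotated transcript, 164 of 723, or 22.7%, lay in the first intron and 74, or 10.2%, in the last. With the host gene cut into 5 segments of equal length, the shares from 5′ to 3′ were 17.6%, 17.9%, 19.5%, 19.9% and 25.03%. The interval of the last segment, 22.1% to 28.3%, lay above the upper limits of the first pair, 20.5% and 20.8%, but sites of 1 gene are not independent. Chromosome 19 held the most intronic sites, with 99 of the 752, or 13.2%.

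**Figure D4:**
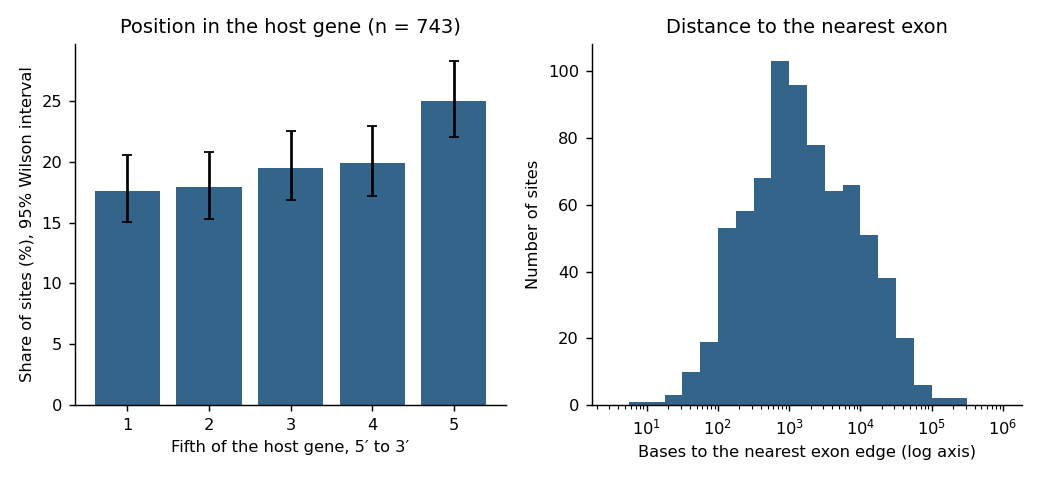
Left, share of the 743 intronic sites with a matched host gene in each of 5 equal segments of the gene from 5′ to 3′ (vertical, percent, with 95% Wilson intervals). Right, number of sites (vertical) by distance to the nearest exon edge (horizontal, bases, log axis) for the 681 sites that touch no exon of the host. The last segment is the fullest with 25.03%, and the median distance is 1486 bases.

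The RNA-seq libraries held 53230029 reads on exon bins in the control, 41629454 in the shRBM15#1 line and 52458857 in the shRBM15#2 line. RBM15 itself had 80.2, 43.7 and 40.7 counts scaled to library size (CPM) in the control, shRBM15#1 and shRBM15#2 libraries, a log2 fold change of -0.93 (SE 0.23, edgeR quasi-likelihood test, adjusted p = 0.091) that did not pass the limit. Of the megakaryocyte markers, ITGA2B had 21287 to 45463 reads per library, whereas GP9 and PF4 had no more than 5. In the control, shRBM15#1 and shRBM15#2 libraries PPBP had 118, 274 and 2968 reads, ITGB3 311, 803 and 2702 and GP1BA 235, 151 and 194. PPBP and ITGB3 were highest in shRBM15#2, and the part of this difference between the lines in the results was not tested. ALB and KRT5, markers of other tissues, had 11 to 82 reads. With a single control the spread rests on the 2 knockdown lines, and a difference of the control culture itself cannot be told apart from the knockdown. Bulk counts do not separate fewer cells of a type from less RNA per cell.

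All 542 host genes had at least 30 reads in sum and were tested. Their exons were more highly covered than those of the average gene, with a median of 414.8 control reads per kilobase of exon against 67.9 over the 24887 genes tested. In the knockdown lines, 3 of the 542 host genes passed an adjusted p under 0.01, all lower, beside 0.346% of all genes tested in either direction and 0.277% lower. SLC22A15, a solute carrier of the organic cation transporter family, had 101 CPM in the control, 6.90 in shRBM15#1 and 12.1 in shRBM15#2 (log2 fold change -3.41, SE 0.33, adjusted p = 0.00323). WARS, the cytoplasmic tryptophanyl-tRNA synthetase, had 2506, 693 and 598 CPM (log2 fold change -1.96, SE 0.22, adjusted p = 0.00552). ATP2A3, a calcium pump of the endoplasmic reticulum, had 252, 29.7 and 50.9 CPM (log2 fold change -2.64, SE 0.30, adjusted p = 0.00602). Both lines were below the control for each of the 3. Their sites were modest, with 96, 188 and 90 anti-RBM15 reads against 1, 10 and 2.

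At an adjusted p under 0.05, 18 host genes, or 3.32%, passed, beside 1.74% of all genes tested. Among genes with at least 10 CPM in the control the shares were closer, with 3.81% of host genes and 3.14% of other genes at 0.05 and 0.634% and 0.771% at 0.01. Of the 18 host genes 16 were lower and 2 higher, DHCR7, the last enzyme of cholesterol synthesis (73.3, 189 and 170 CPM), and the motor protein gene MYO1E (11.5, 28.6 and 34.1 CPM). The lower genes included the chromatin remodeler gene CHD5 with 3 intronic sites, the serine synthesis enzyme PSAT1, the alanine aminotransferase GPT2 and the Ras pathway scaffold KSR1.

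**Figure D5:**
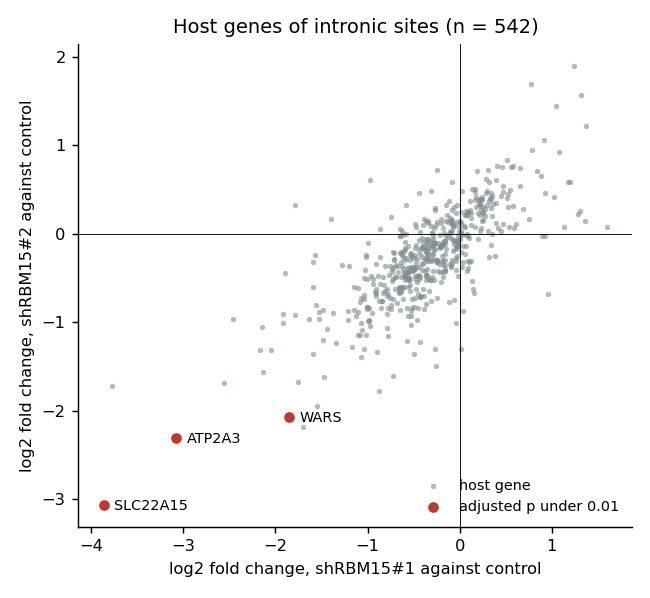
Log2 fold change of the 542 host genes in the shRBM15#1 line (horizontal) and the shRBM15#2 line (vertical), each against the single control library. Each point is 1 gene, and the 3 genes with an adjusted p under 0.01 are red and named. More points lie at the lower left, below 0 in both lines (348 genes), than at the upper right (107), and both lines share the control library.

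As a group the host genes lay below the average gene in the knockdown lines. Their median log2 fold change was -0.28 (quartiles -0.57 and 0.03), beside 0.02 over all genes tested, and 394 of 542, or 72.7%, had a negative value, beside 48.9% of all genes. The medians were -0.34 in shRBM15#1 and -0.25 in shRBM15#2, which share the control. The value differed by expression level and by gene length. Among genes with at least 10 CPM in the control, the median was -0.29 for 473 host genes and -0.16 for 8953 other genes. At this level 74.4% of the host genes and 65.1% of the other genes had a negative value. In the longest quartile of host length the medians were -0.41 for 120 host genes and -0.26 for 765 others of that length and level. In the next shorter quartile they were -0.25 for 124 and -0.20 for 1254. The quartile below that had -0.26 for 119 and -0.17 for 2243. In the shortest quartile they were -0.28 for 110 and -0.12 for 3819. Host medians thus did not fall steadily with length, and they lay closer to the other genes in the middle quartiles. The 377 genes with 3'UTR sites and no intronic site had a median of -0.09. Host genes with 1 site had a median of -0.27 (427 genes), those with 2 a median of -0.26 (74), those with 3 or 4 a median of -0.52 (28) and those with 5 or more a median of -0.47 (13). The part of length, level and composition in these values was not tested.

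Genes were also grouped by function in 5 lists, with 129 genes tested in all, of which 75 had intronic sites. Over all 24887 genes tested, 542 had intronic sites. At 10 CPM or more in the control, 473 had them and 8953 did not. The lists were written with earlier results known, so the numbers of members with sites describe the lists only. None of the 129 passed an adjusted p of 0.01 in edgeR, while 42, or 32.6%, had an unadjusted p under 0.05 there, beside 18.8% of all genes. At 10 CPM or more in the control, this share was 27.9% of host genes and 22.5% of other genes. In DESeq2, 2 of the 129, or 1.55%, passed an adjusted p of 0.01, beside 2.17% of all genes. Of 25 erythroid and megakaryocyte transcription regulators, 11 had intronic sites, 13 in all. None of the 25 passed at 0.05 either, and the median log2 fold change was -0.51 among the 11 and -0.30 among the 25. RUNX1 had 6334, 2580 and 3679 reads in the control, shRBM15#1 and shRBM15#2 libraries (log2 fold change -0.998, SE 0.23, adjusted p = 0.0777), GATA1 3550, 2873 and 3446 (-0.14, SE 0.22) and TAL1 11681, 15529 and 20832 (0.66, SE 0.23). GFI1B, a repressor that works with GATA1, had 837, 1298 and 2869 reads (1.31, SE 0.39, adjusted p = 0.139), so the list held values of both signs.

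Of 31 corepressors and histone-modifying enzymes, 17 had intronic sites, 23 in all, and all 17 had a log2 fold change below 0 with a median of -0.48, but none passed at 0.05. Over the whole list 29 of 31 members were below 0 and the median was -0.47. H2AFY had 25841, 12192 and 19073 reads (log2 fold change -0.71, SE 0.25).

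Of 26 genes of Src family, adaptor and Vav signaling, 13 had 25 sites and a median of -0.21, beside -0.29 over the whole list. VAV1 had 8964, 2180 and 6979 reads (log2 fold change -0.99, SE 0.46), with shRBM15#1 far below shRBM15#2. Of 27 RNA-binding and RNA decay proteins, 21 had 25 sites and a median of -0.28, as had the whole list. PCBP2, which binds poly-C RNA, had 8407, 4450 and 3997 reads (log2 fold change -0.95, SE 0.24, adjusted p = 0.0986). FBL, the nucleolar fibrillarin methyltransferase, had 17844, 7662 and 11341 (-0.89, SE 0.23, adjusted p = 0.107). Of 20 genes of Ras and mTOR signaling, 13 had 21 sites and a median of -0.18, as had the whole list. KSR1, with 3953, 1594 and 1717 reads (-1.22, SE 0.23, adjusted p = 0.0373), was the 1 member that fell at 0.05. RPTOR, with 4 sites, had 4130, 3804 and 3362 reads (-0.16, SE 0.25). The lists were written with earlier results known, and their counts are descriptions. Negative values made up 48.9% of all genes tested and 65.1% of the genes without intronic sites that had at least 10 CPM in the control.

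Exon bins next to intronic sites were called for a change of use at about the share of all bins. Use of an exon bin is its read count relative to the rest of its gene, and 234192 bins with at least 30 reads in sum were tested with diffSpliceDGE in edgeR. The nearest tested bin of the host gene on each side gave 1184 bins, at median distances of 3259 bases upstream and 3640.5 downstream. At the limits of the study, a fold above 1.2 with an unadjusted p under 0.05, 20 of them, or 1.69%, were called. This stood beside 1.45% of all bins tested and 1.30% of the bins of host genes. Of the 20, 6 were used more and 14 less, beside 1550 more and 1842 less among all called bins. Among called bins of host genes the numbers were 93 and 97, and the difference in direction was not tested. At an adjusted p under 0.05, 1 was called, beside 0.0205% of all bins. This was bin 020 of MACROD1 (chr11:63916219-63916506), 48885 bases upstream of the site, with 19 reads in the control, 49 in shRBM15#1 and 48 in shRBM15#2, or 0.449%, 2.56% and 1.93% of the reads of the gene (log2 fold change of usage 1.601, SE 0.21, adjusted p = 0.0155). The next smallest p-values belonged to bins of TSNARE1, STXBP5, MAD1L1, LSS, TCF25, TRAPPC9 and PDCD6, with adjusted p-values from 0.927 to 1.

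Ensembl exon bins that lay under intronic sites were few and thinly covered. The 62 sites that overlapped bins of their host touched 80 bins, which had a median of 40.5, 25 and 32 reads in the control, shRBM15#1 and shRBM15#2 libraries, and 61 of them were tested. Of these 3, or 4.92%, were called at the same unadjusted limits, beside 1.45% of all bins tested, and none at an adjusted p under 0.05. They were bin 013 of LSS, which encodes lanosterol synthase, with 17, 6 and 11 reads (log2 fold change of usage -1.21, SE 0.38), bin 009 of the inflammasome gene NLRP1 with 7, 15 and 15 (1.17, SE 0.40) and bin 028 of CPNE7 with 17, 23 and 15 (0.84, SE 0.35). The LSS bin also counted among the called bins next to sites, 286 bases upstream of another LSS site, so the counts over and next to sites overlap. The TAL1 bin 005 under the site had 76, 100 and 118 reads, or 0.651%, 0.644% and 0.566% of the reads of TAL1 (-0.08, SE 0.16, unadjusted p = 0.744 in edgeR). The TLE3 bin 013 had 46, 48 and 54 reads (0.19, SE 0.23).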

How the data were processed

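RIP-seq and RNA-seq libraries of MEG-01 cells were analysed from the deposited files. For the RIP-seq, the authors used STAR to align trimmed reads to hg19, which is GRCh37, found peaks in the summed coverage of all libraries, and deposited raw read counts for peaks with more reads in RBM15 samples by DESeq. That filter fixes the direction of the counts, and their fold changes and p-values were not used. For the RNA-seq, the authors deposited raw counts per exon bin of Ensembl GRCh37.70 gene models. Reads were unstranded, so overlapping genes cannot be separated. The submitters' processing notes list HTSeq 0.6.0. Lines that name no gene held 23.2%, 32.0% and 23.5% of the reads and were left out. A deposited DEXSeq table gave only bin positions, and 809 wrapped lines of it were left out.

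Bin counts were summed per gene and tested with edgeR 4.0.16 (R 4.3.3, TMM, quasi-likelihood test, at least 30 reads in sum, Benjamini-Hochberg adjusted p). DESeq2 1.42.0 was an alternative. Scripts were tested on simulated data. Sequence was read from GRCh37 with pysam 0.24.0 on Python 3.11.15. Hosts were matched by gene identifier (738 sites), symbol (3) or 90% overlap of span (2), and 9 sites were not matched. Introns of the longest transcript came from GENCODE lifted to GRCh37. The knockdown libraries came from separate stable lines, and with 1 control library the only spread within a group is that between these lines. For each gene, the quasi-likelihood test combines this spread with that of the other genes. The p-values do not cover the spread between control cultures.

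Named were the 10 sites with the most anti-RBM15 reads, genes with at least 5 intronic sites, genes the study names with these data, host genes called at an adjusted p under 0.01, host members of listed gene groups, bins called at an adjusted p under 0.05 and those with the smallest p. FLRT1, MACROD1, COL18A1 and the genes called only at 0.05 were added after their values were seen. Some named genes and 1 list are not reported here. The members, lists and rules were chosen with earlier results of these data known.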

Additional observations from a re-analysis of the deposited data

Results flagged for a closer look

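The library labelled normal IgG that was assigned to no antibody had 197778 reads over the intronic sites, against 6588 in the assigned normal IgG library. It lies outside the comparisons above and was picked out because its reads exceed those of the control library. Its reads per site had a Spearman rho of 0.96 with the anti-RBM15 library over the 752 sites, which share transcript abundance and site width, and the other unassigned library had 6282 reads and a rho of 0.78.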

How the results depend on the processing

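The number of sites, the GC medians and the share of sites with more cytosine than guanine stayed close to the reported values under the alternatives tried. The latter were chosen after seeing the data and gave 93.8% for sites with at least 100 anti-RBM15 reads, 94.6% off exon bins, 94.0% with 1 site per gene and 93.3% without repeats. With at least 100 anti-RBM15 reads the median ratio was 36.7. With overlap of at least 50% of the site 7.85% overlapped an exon bin, with the longest transcript 22.7% lay in the first intron, and with 10-base words the median repeated share was 10.9%. Called host genes numbered 8 with size factors (0.768% of all genes called), 31 with no filter on low counts (1.496%) and 19 with DESeq2 (2.17%), and each setting kept the 3 reported genes. With no filter the host median was -0.41, but the median of all genes moved to 0.44, and the difference from all genes was -0.30 under the reported setting and -0.85 without a filter. Leaving out 1 knockdown line gave host medians from -0.28 to -0.20, and without shRBM15#1 the difference from all genes was -0.19, with no test because no residual degree of freedom was left. With bins of at least 300 counts, 6 bins next to sites (0.828%, beside 0.880% of all bins) and 0 over sites were called, and with the nearest 2 bins on each side 34 (1.51%). No paired analysis was possible because the single control carries no replicate number shared with both lines.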
